A study of Homo sapiens with 6 samples.

Results

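The Rab genes encode small GTPases that direct membrane traffic, and RAB11FIP1 encodes an adaptor that binds several of them. Members were the gene names made of RAB, a number and at most a letter from A to D, plus RAB11FIP1, which was added because it was higher with CXCL10 in an earlier look at these libraries. This gave 65 of 57316 gene names, of which 64 were Rab genes, and all 65 are accounted for here. Transcripts were measured in the human line THP-1, which comes from a monocytic leukaemia, after PMA, a phorbol ester that drives these cells towards a macrophage state, at 100 ng/ml for 48 h. The treated cells then received recombinant human CXCL10, a chemokine that binds the receptor CXCR3, at 100 ng/ml for 24 h, and the control cells received a control solution. Polyadenylated RNA from 3 CXCL10 and 3 control libraries was sequenced, and replicates are numbered 1, 3 and 4 in each group. Nothing in the labels says whether replicates came from separate cultures, and the p-values given here therefore reflect only how far these samples spread, which may be technical.

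A Rab protein cycles between a GTP-bound form, which sits on a membrane and recruits effectors, and a GDP-bound form, which is carried in the cytosol by a GDP dissociation inhibitor. Exchange factors switch a Rab on and GTPase-activating proteins of the TBC family switch it off. Each Rab marks particular compartments: RAB5 proteins the early endosome, RAB7A the late endosome and lysosome, RAB11 proteins the recycling endosome, and RAB1 and RAB2 proteins the path between endoplasmic reticulum and Golgi. In macrophages these steps carry phagosome maturation, receptor recycling and cytokine release. RAB11FIP1, also called Rab-coupling protein, links RAB11 vesicles to the return of receptors and integrins to the cell surface.

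Libraries held 34.8 to 41.02 M reads with CXCL10 and 36.0 to 38.9 M reads in controls. The members took 0.333% to 0.376% of reads with CXCL10 and 0.332% to 0.353% in controls. Control replicate 4 stood apart from the other libraries: it was the highest or lowest of the 6 for 55.1% of the 16531 genes tested. Ribosomal protein genes took 7.07% to 8.83% of reads with CXCL10 and 8.92% to 11.8% in controls, with the highest share in control replicate 4. Of 10 macrophage and monocyte markers, 8 had a mean above 1 CPM, and their summed level was 2823 to 3124 CPM with CXCL10 and 2885 to 3364 CPM in controls. CSF1R, the receptor of macrophage colony-stimulating factor, held much of that sum, at 1543 ± 72.8 CPM with CXCL10 and 1496 ± 47.3 CPM in controls (SD, n = 3 each). Of the 9 markers tested none passed, but single markers differed in both directions: LYZ had 15.2, 15.2 and 17.97 CPM with CXCL10 and 10.5, 10.3 and 6.13 CPM in controls, and TYROBP had 506, 371 and 378 CPM with CXCL10 and 523, 474 and 857 CPM in controls, each at an adjusted p of 0.683 from edgeR. ITGAM, CD163 and CYBB also had every CXCL10 library above the controls, as 5.76% of all genes tested did. Their adjusted p values were 0.683, 0.694 and 0.687 by edgeR. CD68 had a mean of only 0.0475 CPM, and 85.6% of its exon bases are shared with other annotated genes, whose reads the counting left out. The epithelial markers summed to at most 0.389 CPM in any library, the T and NK cell markers to at most 8.92 CPM and the B cell markers to at most 4.13 CPM. The markers EPCAM, KRT5, CD2 and MS4A1 had 0 reads in all 6 libraries. The fibroblast and endothelial list summed to 258 to 339 CPM with CXCL10 and 266 to 357 CPM in controls, nearly all of it from PECAM1, an adhesion molecule that monocytes also carry. What part the apartness of control replicate 4 has in the results was not tested. Below, each fold change of a named gene from the main edgeR fit of all 6 libraries is followed by its value without that library. Values from other settings are not, and RAB27B is given with its range over single libraries left out instead.

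The Rab family was broadly expressed in these cells, and a few late endosomal, phagosomal and early endosomal members held much of its level. Of 64 Rab genes, 14 averaged over 100 CPM, 18 lay between 10 and 100 CPM, 16 between 1 and 10 CPM and 13 under 1 CPM, and 3 had no read. Levels are compared between genes below only as CPM per kilobase of exon, written CPM/kb; CPM is the read count scaled to a common library size. On that scale the top 5 genes held 42.4% of the family's summed level and the top 20 held 90.4%. RAB19, RAB25, an epithelial relative of RAB11A, and RAB6D were without a read in every library, for which the upper limit is 0.146 to 0.173 CPM. That limit stands for 3 fragments, or 6 reads because both mates were counted, and covers counting error only. RAB34, RAB42, RAB1C, RAB6C and RAB39B had too few reads to be tested, so 56 Rab genes passed the filter on low counts.

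**Figure D1:**
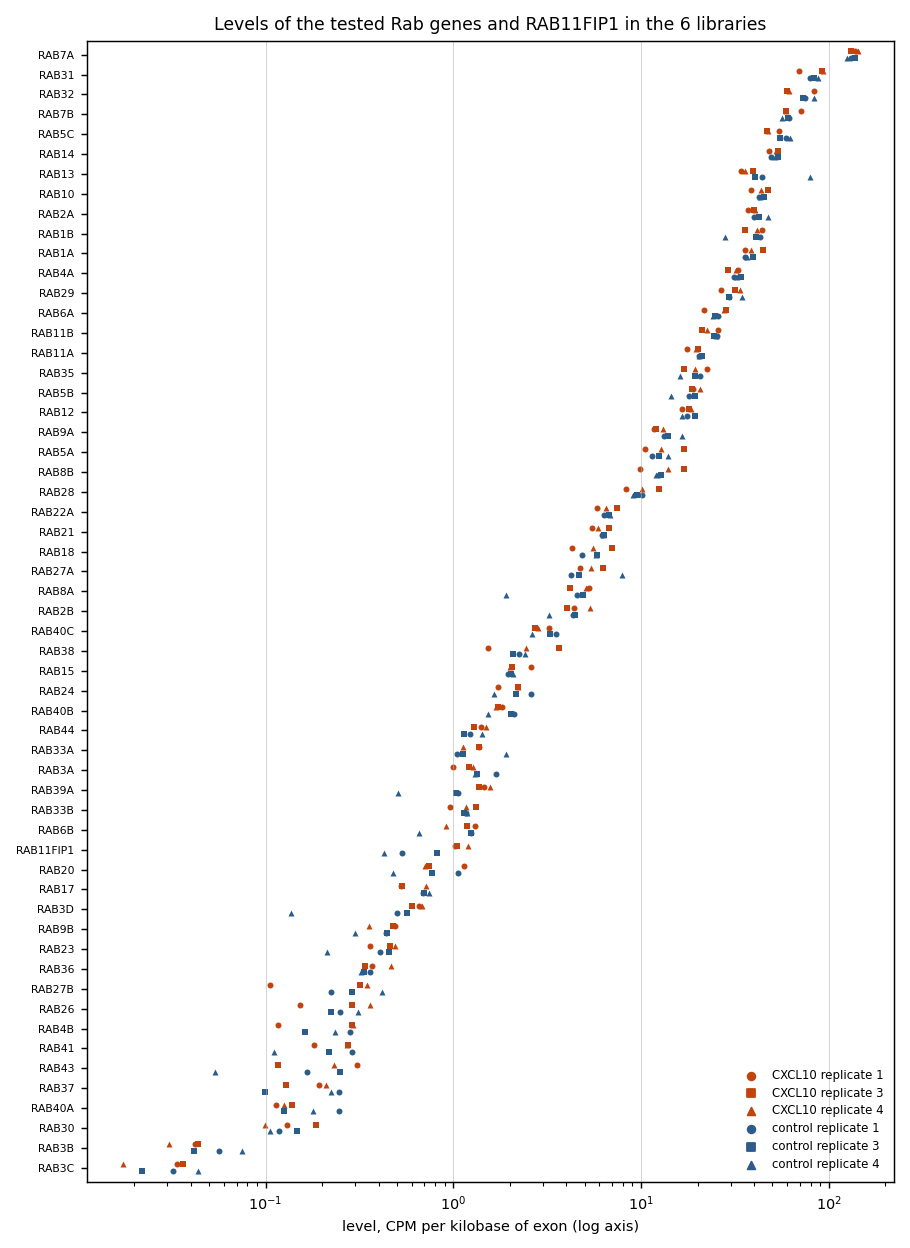
Levels of the 56 tested Rab genes and RAB11FIP1, 1 gene per row, on a log axis in CPM per kilobase of exon; each point is 1 library, with CXCL10 libraries in orange above control libraries in blue. RAB7A is at the top near 134 CPM/kb, and control replicate 4 (blue triangles) lies away from the other points for RAB13, RAB8A, RAB39A, RAB3D and RAB43.

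RAB7A, the main Rab of late endosomes and lysosomes, had the highest level, at 138 ± 5.62 CPM/kb with CXCL10 and 131 ± 6.18 CPM/kb in controls. RAB31, an early endosome and trans-Golgi Rab, came next with 84.8 ± 13.1 CPM/kb with CXCL10 and 83.4 ± 4.05 CPM/kb in controls. RAB32, which works on lysosome-related organelles and phagosomes, had 68.1 ± 12.9 CPM/kb with CXCL10 and 77.04 ± 5.50 CPM/kb in controls. RAB7A stood above RAB31 in both groups by more than their SDs, while with CXCL10 RAB32 lay within 1 SD of RAB7B. RAB7B, a lysosome-associated relative of RAB7A, had 63.1 ± 6.80 CPM/kb with CXCL10 and 59.4 ± 2.63 CPM/kb in controls. RAB14, which links the Golgi with endosomes, had 51.5 ± 2.81 CPM/kb with CXCL10 and 51.7 ± 2.50 CPM/kb in controls. RAB10, a Rab of exocytosis and endosomal sorting, had 43.3 ± 4.60 CPM/kb with CXCL10 and 43.5 ± 1.34 CPM/kb in controls. Across all 6 libraries the steadiest of the tested Rab genes were RAB14 and RAB7A, with coefficients of variation of 4.61% and 4.72%, and the most variable was RAB43, with 49.8%.

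By role, late endosome, lysosome and autophagy Rab genes held the largest part of the summed CPM/kb, at 24.6% ± 1.18 with CXCL10 and 23.3% ± 1.22 in controls (n = 3 each). Early endosome genes held 19.0% ± 1.11 with CXCL10 and 19.1% ± 0.212 in controls. The shares of endoplasmic reticulum and Golgi genes were 16.9% ± 0.50 with CXCL10 and 16.1% ± 0.909 in controls, and those of recycling endosome genes 15.6% ± 0.523 with CXCL10 and 15.6% ± 0.512 in controls. Exocytosis and secretion genes held 11.2% ± 1.05 with CXCL10 and 12.6% ± 1.90 in controls, where control replicate 4 alone reached 14.8%. Phagosome and lysosome-related genes held 11.1% ± 1.124 with CXCL10 and 11.7% ± 0.677 in controls. Library values of the 2 groups overlapped for each of these 6 roles.

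Some close relatives were expressed at very different levels and others at like levels. RAB5C had 49.5 ± 4.06 CPM/kb with CXCL10 and 58.8 ± 3.86 CPM/kb in controls, above RAB5B with 19.4 ± 1.06 CPM/kb with CXCL10 and 17.2 ± 2.55 CPM/kb in controls. RAB5A, the remaining member of that early endosome trio, had 13.4 ± 3.22 CPM/kb with CXCL10 and 12.6 ± 1.22 CPM/kb in controls. RAB27A, which docks secretory lysosomes and exosomes at the plasma membrane, exceeded its relative RAB27B 44.6-, 19.8- and 15.5-fold in CXCL10 replicates 1, 3 and 4 and 18.9-, 16.1- and 18.9-fold in control replicates 1, 3 and 4 on the CPM/kb scale. The 44.6-fold ratio rests on 28 reads of RAB27B, and the other CXCL10 libraries lay near the controls. RAB7A exceeded RAB7B 2.20 ± 0.236-fold with CXCL10 and 2.21 ± 0.0636-fold in controls. RAB20, a Rab of macrophage phagosomes, was low, at 0.864 ± 0.244 CPM/kb with CXCL10 and 0.771 ± 0.294 CPM/kb in controls. RAB11A and RAB11B, the recycling endosome Rabs to which RAB11FIP1 binds, had like levels: RAB11A had 19.1 ± 1.36 CPM/kb with CXCL10 and 20.7 ± 0.423 CPM/kb in controls, and RAB11B had 23.1 ± 2.24 CPM/kb with CXCL10 and 25.0 ± 0.380 CPM/kb in controls. As counted, RAB1A was near RAB1B, at 0.995 ± 0.228 times its CPM/kb with CXCL10 and 1.03 ± 0.239 times in controls. That likeness is uncertain, because RAB1B shares 43.8% of its exon bases with other genes and RAB1A 22.9%. Reads there were left out, while the level is divided by the whole exon length.

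RAB11FIP1 itself (chromosome 8, 37858618 to 37899467, minus strand, hg38) had 9.76, 10.1 and 11.4 CPM in CXCL10 replicates 1, 3 and 4. In control replicates 1, 3 and 4 it had 5.12, 7.83 and 4.13 CPM. All 3 CXCL10 libraries lay above all 3 controls, and control replicate 4 was the lowest. Its means were 10.4 ± 0.894 CPM with CXCL10 and 5.69 ± 1.92 CPM in controls (SD, n = 3 each), a log2 fold change of 0.87 ± 0.22 (SE). That value was 0.69 when control replicate 4 was left out and 1.18 when control replicate 3 was. It was 0.76 after a trend with gene length was taken out of every library. With control replicate 4 left out and trends with GC content and gene length both removed, it was 0.62. Since the gene was picked for this difference, the values are a description and carry no test. On the opposite strand, 24.8% of its exon bases lie over the gene AC130304.1, and since strand was not used in counting, reads there were assigned to neither gene. Per kilobase the adaptor had 1.09 ± 0.0931 CPM/kb with CXCL10 and 0.593 ± 0.200 CPM/kb in controls, far under RAB11A and RAB11B.

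The other RAB11FIP adaptors did not pass the edgeR quasi-likelihood test after adjustment (Benjamini-Hochberg) over all genes. RAB11FIP5 was the most abundant of them, at 12.8 ± 1.62 CPM/kb with CXCL10 and 12.5 ± 0.506 CPM/kb in controls. The next, RAB11FIP4, had 3.29 ± 0.407 CPM/kb with CXCL10 and 2.87 ± 0.164 CPM/kb in controls. In CPM, RAB11FIP5 had 93.6, 78.0 and 100.3 in CXCL10 replicates 1, 3 and 4, against 90.4, 89.5 and 83.8 in control replicates 1, 3 and 4. RAB11FIP4 had 50.5 ± 6.23 CPM with CXCL10 and 44.04 ± 2.52 CPM in controls, a log2 fold change of 0.20 ± 0.14 (SE), at an adjusted p of 0.771 from edgeR, and 0.16 without control replicate 4. RAB11FIP3 had 7.98, 6.17 and 7.35 CPM with CXCL10 and 7.48, 6.75 and 3.20 CPM in controls, so that only control replicate 4 was low. RAB11FIP2 had 5.73 ± 1.71 CPM with CXCL10 and 5.41 ± 0.582 CPM in controls. Libraries of the 2 groups overlapped for all 4 of these adaptors.

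CXCL10 was set against control to ask which Rab transcripts differ after a day with the chemokine. Of the 56 tested Rab genes, edgeR called 0 higher and 0 lower at an adjusted p under 0.05, and of all 16531 genes tested it called 0% higher and 0% lower. At an unadjusted p under 0.05, 1 Rab gene was above and 1 below 0, where 2.5% and 4.65% of all genes were, or 7.14% in either direction. In bulk RNA, fewer cells with a transcript and less of it per cell cannot be told apart. DESeq2 and limma-voom also called 0 Rab genes, and put 2 and 3 of them under 0.05 before adjustment. The fitted log2 fold change was above 0 for 29 Rab genes and below 0 for 27, with a median of 0.03, and the median over all genes was 0.02. Scaled by library size alone, 40 of 56 were above 0, with medians of 0.11 over Rab genes and 0.10 over all genes. Without CXCL10 replicate 3 the count above 0 was 21 of 56, where 49.7% of all genes were above 0, and without CXCL10 replicate 1 it was 35 of 56, where 54.4% of all genes were. For 46 of the 56 genes the 95% interval stayed between -1 and 1 on the log2 scale, or 82.1%, as it did for 74.4% of all genes.

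**Figure D2:**
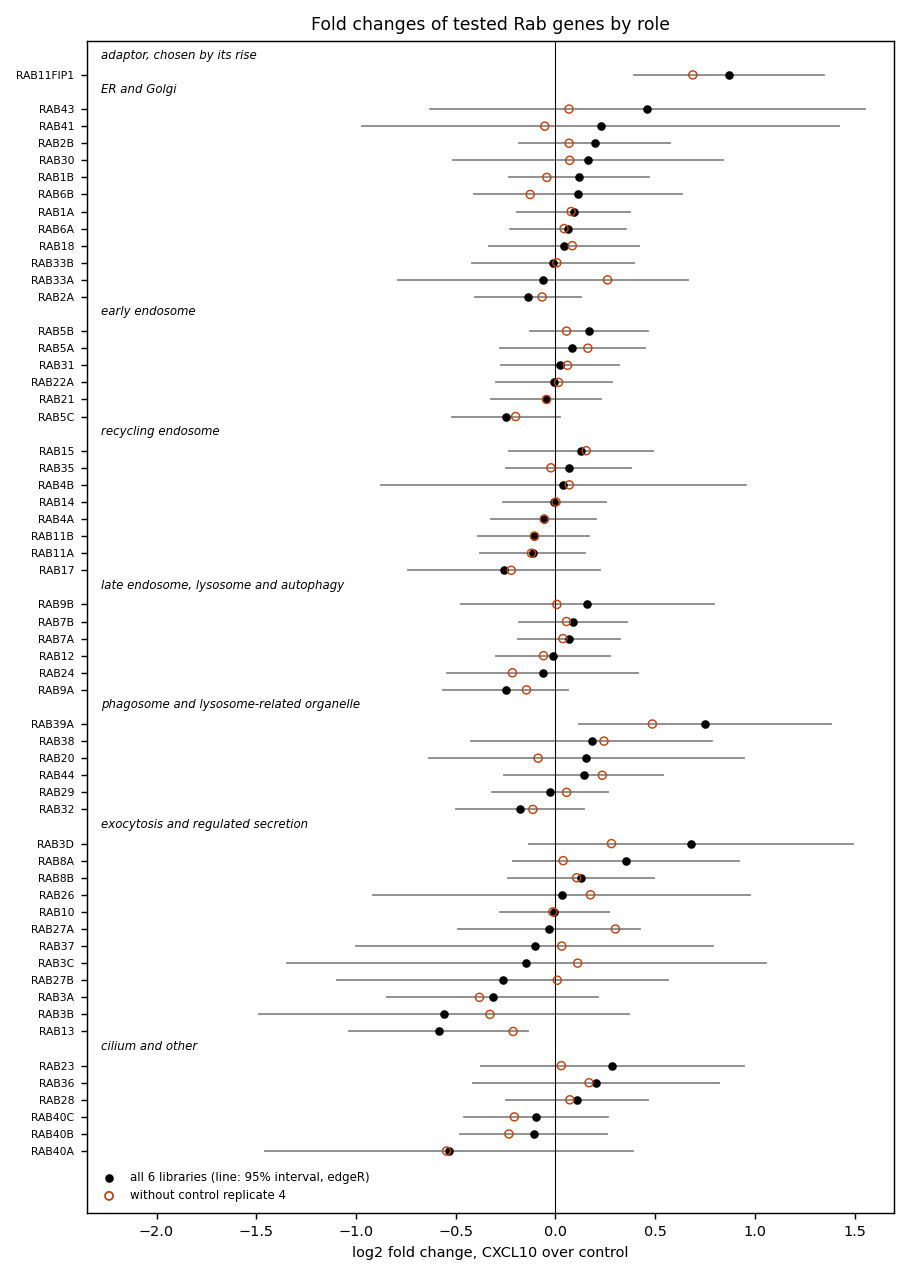
Log2 fold changes, CXCL10 over control, of RAB11FIP1 and the 56 tested Rab genes, grouped by role; black points with lines are edgeR's values with 95% intervals over all 6 libraries, and open orange circles are values without control replicate 4. Intervals of all Rab genes but RAB39A and RAB13 cross 0, and the open circle lies closer to 0 for RAB3D (0.28), RAB8A (0.04) and RAB13 (-0.21).

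The CXCL10 libraries lay wholly above or below the controls for 7 of 56 Rab genes, or 12.5%, where 12.2% of all genes did. RAB39A and RAB3D were on the higher side, where 5.76% of all genes lay, and RAB5C, RAB13, RAB11A, RAB9A and RAB3A were on the lower side, where 6.48% of all genes lay. None of the 7 had an adjusted p under 0.68 by edgeR.

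Among endosomal Rab genes, RAB5C (chromosome 17, 42124976 to 42155044) had 150, 130 and 131 CPM in CXCL10 replicates 1, 3 and 4. Control replicates 1, 3 and 4 had 164, 151 and 172 CPM. The groups did not overlap, but CXCL10 replicate 1 and control replicate 3 were nearly level. Its log2 fold change was -0.25 ± 0.13 (SE), at an adjusted p of 0.702 from edgeR, and -0.20 without control replicate 4. RAB5B (chromosome 12, 55973913 to 55996683) had 123, 122 and 134 CPM with CXCL10, against 118, 126 and 93.9 CPM in controls. Here the groups overlapped and control replicate 4 was lowest, with a log2 fold change of 0.17 ± 0.14, at an adjusted p of 0.806 from edgeR, and 0.06 without that library. RAB9A (chromosome X, 13689125 to 13710506), which returns receptors from late endosomes to the Golgi, had 24.7, 25.4 and 27.6 CPM with CXCL10 and 27.9, 29.5 and 35.04 CPM in controls. Its groups were separate by a narrow gap, with a log2 fold change of -0.25 ± 0.15, at an adjusted p of 0.733 from edgeR, and -0.14 without control replicate 4. For RAB11A the gap was as narrow: 99.8, 114 and 112 CPM with CXCL10 lay just under 116, 120 and 116 CPM in controls, and the log2 fold change was -0.11 ± 0.12, at an adjusted p of 0.854 from edgeR, and -0.12 without control replicate 4.

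Among phagosome and lysosome-related genes, RAB39A (chromosome 11, 107928448 to 107963482), which acts on phagosomes and binds caspase-1, had the largest positive fold change of the Rab genes. It had 2.75, 2.598 and 2.94 CPM in CXCL10 replicates 1, 3 and 4, against 1.99, 1.96 and 0.957 CPM in control replicates 1, 3 and 4. The CXCL10 libraries agreed closely and all lay above the controls, of which replicate 4 was far the lowest. Its log2 fold change was 0.75 ± 0.29 (SE), at an adjusted p of 0.683 from edgeR, and 0.49 ± 0.25 without control replicate 4. RAB32 (chromosome 6, 146543833 to 146554953) had 88.3, 63.9 and 65.4 CPM with CXCL10 and 79.7, 77.7 and 88.7 CPM in controls. CXCL10 replicate 1 was level with control replicate 4, so the groups overlapped, with a log2 fold change of -0.18 ± 0.15, at an adjusted p of 0.807 from edgeR. Leaving out control replicate 4 gave -0.11, leaving out CXCL10 replicate 1 gave -0.34 and leaving out CXCL10 replicate 3 gave -0.08. Taking out the trend with gene length gave 0.03. RAB20 had 1.73, 1.11 and 1.07 CPM with CXCL10 and 1.60, 1.16 and 0.718 CPM in controls, and its log2 fold change of 0.16 was -0.09 without control replicate 4.

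Exocytosis and secretion genes included the member with the largest negative fold change. RAB13 (chromosome 1, 153981617 to 153986358), which carries vesicles to the cell surface and cell junctions, had 93.4, 108 and 98.03 CPM in CXCL10 replicates 1, 3 and 4. It had 121, 111 and 218 CPM in control replicates 1, 3 and 4. The groups did not overlap, and control replicate 4 stood far above the other 5 libraries. Its log2 fold change was -0.59 ± 0.21 (SE), at an adjusted p of 0.683 from edgeR, and -0.21 ± 0.13 without control replicate 4, at an adjusted p of 0.997 from edgeR. When the low-count filter was dropped edgeR called it, with an adjusted p of 0.029 and a log2 fold change of -0.58. That fit kept control replicate 4 and called 137 of 30869 genes, and it was not run without that library.

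RAB3D (chromosome 19, 11322068 to 11346270), a Rab of secretory granules, had 2.89, 2.64 and 3.0 CPM with CXCL10 and 2.20, 2.49 and 0.598 CPM in controls. Apart from control replicate 4, the libraries of the 2 groups were close. Its log2 fold change was 0.68 ± 0.38 (SE), at an adjusted p of 0.719 from edgeR, and 0.28 without that library. RAB8A (chromosome 19, 16111889 to 16134234), a Rab of exocytosis that also acts in macrophage signalling from surface receptors, had 26.1, 20.7 and 25.0 CPM with CXCL10 and 22.5, 24.2 and 9.39 CPM in controls. Here all libraries but control replicate 4 were intermixed, with a log2 fold change of 0.35 ± 0.26, at an adjusted p of 0.782 from edgeR, and 0.04 without it. RAB3A, best known from synaptic vesicles, had 1.81, 2.20 and 2.33 CPM with CXCL10 and 3.08, 2.43 and 2.36 CPM in controls. That gave a log2 fold change of -0.31 ± 0.25, at an adjusted p of 0.795 from edgeR, and -0.38 without control replicate 4 but -0.18 without control replicate 1. RAB27A overlapped between groups, with 26.4, 35.3 and 30.3 CPM with CXCL10 and 23.8, 26.1 and 44.3 CPM in controls. Its log2 fold change was -0.03 ± 0.21 and turned to 0.30 ± 0.16 without control replicate 4.

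Endoplasmic reticulum and Golgi genes had no member whose groups were separate. RAB2B, a Golgi Rab, had 15.7, 14.5 and 19.2 CPM with CXCL10 and 15.5, 15.9 and 11.6 CPM in controls, a log2 fold change of 0.20 ± 0.18, at an adjusted p of 0.820 from edgeR. RAB1B, which acts between endoplasmic reticulum and Golgi, had 86.1, 70.04 and 81.03 CPM with CXCL10 and 83.6, 79.6 and 54.9 CPM in controls. For both genes the lowest library was control replicate 4, and leaving it out gave log2 fold changes of 0.07 and -0.04. Of the 12 tested genes of this role 9 were above 0, where 54.04% of all genes were, with a median log2 fold change of 0.10 and a range of -0.14 to 0.46. Without control replicate 4 it was 8 of 12 with a median of 0.06, and without CXCL10 replicate 3 it was 6 of 12 with a median just under 0. With control replicate 4 left out and GC and length trends removed it was 5 of 12 with a median of -0.03. The 8 tested recycling endosome genes ranged from -0.26 to 0.13, the 6 late endosome genes from -0.25 to 0.16, and the 6 cilium and other genes from -0.53 to 0.29.

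**Figure D3:**
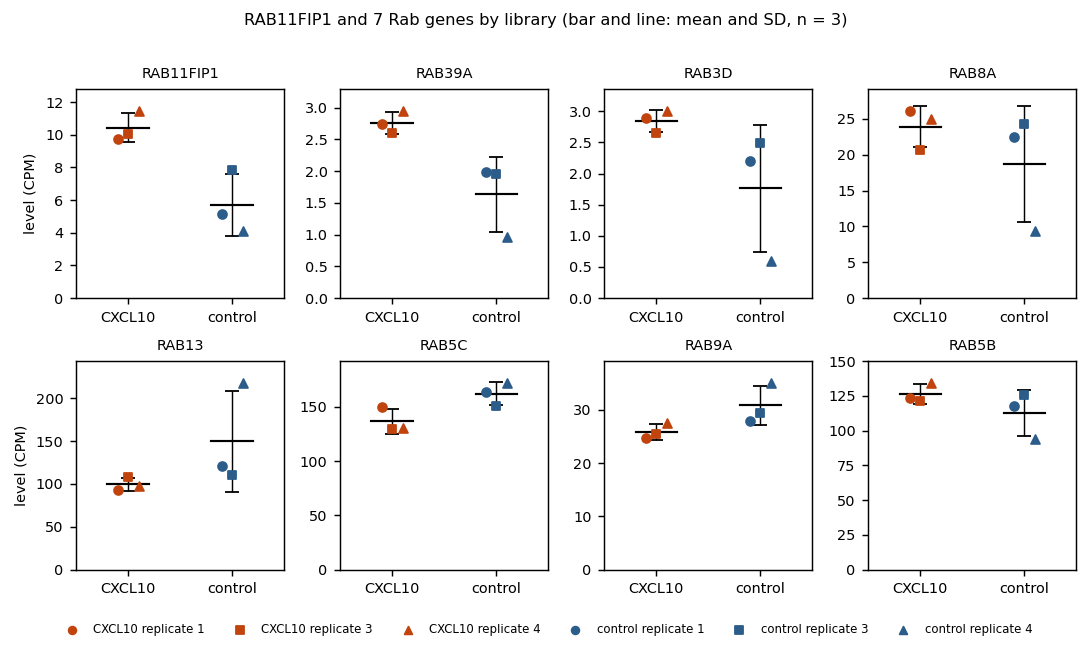
Levels in CPM of RAB11FIP1 and 7 Rab genes, with CXCL10 libraries left and control libraries right in each panel; symbols mark the replicate number, and the bar and line give mean and SD (n = 3). Control replicate 4 is the lowest library for RAB11FIP1 (4.13 CPM), RAB39A (0.957 CPM), RAB3D (0.598 CPM) and RAB8A (9.39 CPM) and the highest for RAB13 (218 CPM).

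Control replicate 4 was the highest or lowest library for 31 of 56 Rab genes, or 55.4%, against 55.1% of all genes. It was lowest for 19 Rab genes and highest for 12. The members farthest from the mean of the other 5 libraries among tested genes of at least 1 CPM were RAB3D, at -1.97 on the log2 scale, RAB8A at -1.32, RAB39A at -1.25 and RAB13 at 1.04. The SD of such deviations over Rab genes was 0.56 for control replicate 4 and from 0.21 to 0.39 for the other libraries. Over all genes it was 0.57 for control replicate 4 and from 0.30 to 0.39 for the other libraries. Because these 4 genes stood farthest off in that library and carry the fold changes that shrink without it, the 250 bases before their starts are shown, from RefSeq's GRCh38.p14 table on the gene's strand, with matches to the GC box GGGCGG on either strand in capitals.
RAB39A: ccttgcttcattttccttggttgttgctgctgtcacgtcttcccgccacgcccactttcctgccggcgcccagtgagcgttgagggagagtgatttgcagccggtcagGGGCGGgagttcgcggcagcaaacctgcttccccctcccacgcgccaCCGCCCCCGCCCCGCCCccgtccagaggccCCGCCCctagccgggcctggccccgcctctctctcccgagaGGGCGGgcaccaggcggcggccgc
RAB3D: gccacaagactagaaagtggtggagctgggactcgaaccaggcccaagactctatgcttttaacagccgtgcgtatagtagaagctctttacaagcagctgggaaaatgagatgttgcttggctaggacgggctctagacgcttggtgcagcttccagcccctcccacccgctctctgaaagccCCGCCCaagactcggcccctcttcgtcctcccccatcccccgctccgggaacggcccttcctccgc
RAB8A: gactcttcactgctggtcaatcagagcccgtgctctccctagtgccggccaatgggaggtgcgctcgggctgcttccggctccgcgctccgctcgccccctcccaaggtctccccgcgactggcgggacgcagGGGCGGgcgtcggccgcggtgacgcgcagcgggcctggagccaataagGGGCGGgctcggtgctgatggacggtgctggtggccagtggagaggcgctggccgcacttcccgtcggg
RAB13: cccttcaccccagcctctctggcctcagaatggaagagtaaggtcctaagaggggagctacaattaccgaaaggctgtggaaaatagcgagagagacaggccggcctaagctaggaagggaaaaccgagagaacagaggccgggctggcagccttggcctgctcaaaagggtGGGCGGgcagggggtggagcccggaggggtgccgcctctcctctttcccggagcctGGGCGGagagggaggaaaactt
They lie at chr11:107928198-107928447 (plus strand), chr19:11339658-11339907 (minus), chr19:16111639-16111888 (plus) and chr1:153986340-153986589 (minus) in the order above. RefSeq and GENCODE place the start of RAB3D differently, so its window lies inside the gene as counted. RAB39A had 6 matches, RAB3D had 1, RAB8A had 2 and RAB13 had 2, with matches allowed to overlap each other. The same table held 50 of the 64 Rab genes, and 39 of those 50, or 78.0%, had a GC box in the 250 bases, against 42.3% of all 27305 genes in the table. The median GC content of these windows was 64.8% for Rab genes and 58.0% for all genes. Other motifs were less common: the E-box CACGTG was in 10% of Rab windows and 6.49% of all, and the AP-1 motif TGANTCA in 4% and 6.60%. TATAAA was in 8% of Rab windows and 11.1% of all, and the interferon-stimulated response element in 2% and 3.07%. None of those 4 motifs was found in the windows printed here. A match is a run of letters and not a measured binding site.

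Some of the libraries also differed in a way that followed base composition. Across the 48 tested Rab genes of at least 1 CPM, a library's deviation from the mean of the other 5 correlated with transcript GC content at Pearson r = -0.57 in CXCL10 replicate 3 and 0.44 in CXCL10 replicate 1. In CXCL10 replicate 4 it was -0.09. In controls r was 0.54 for replicate 1, -0.09 for replicate 3 and -0.15 for replicate 4. These correlations are across genes that share libraries and carry no test. Over all 13203 such genes with a GC value, r was -0.53 in CXCL10 replicate 3 and 0.51 in CXCL10 replicate 1. It was -0.07 in CXCL10 replicate 4, and 0.34, 0.10 and -0.06 in control replicates 1, 3 and 4. The fold change between groups correlated little with GC over the same Rab genes (r = -0.07). Ratios of relatives that differ in GC also differed between libraries: RAB5C has 55.8% GC and RAB5A 42.0%, and RAB5C exceeded RAB5A 5.15-fold in CXCL10 replicate 1 but 2.78-fold in CXCL10 replicate 3 on the CPM/kb scale. Likewise the RAB11A to RAB11B ratio, with 37.2% and 63.5% GC, was 0.686 in CXCL10 replicate 1 and 0.946 in CXCL10 replicate 3. In controls these ratios ran from 4.37 to 5.17 for RAB5C over RAB5A and from 0.807 to 0.862 for RAB11A over RAB11B. Other pairs varied more within controls: RAB1A over RAB1B, with 38.3% and 61.1% GC, ran from 0.830 to 1.30. A pair alike in GC varied too. RAB9A over RAB9B, with 39.6% and 39.5% GC, ran from 24.0 to 36.5 with CXCL10 and from 30.1 to 54.9 in controls. Whether GC content sets these ratios was not tested.

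**Figure D4:**
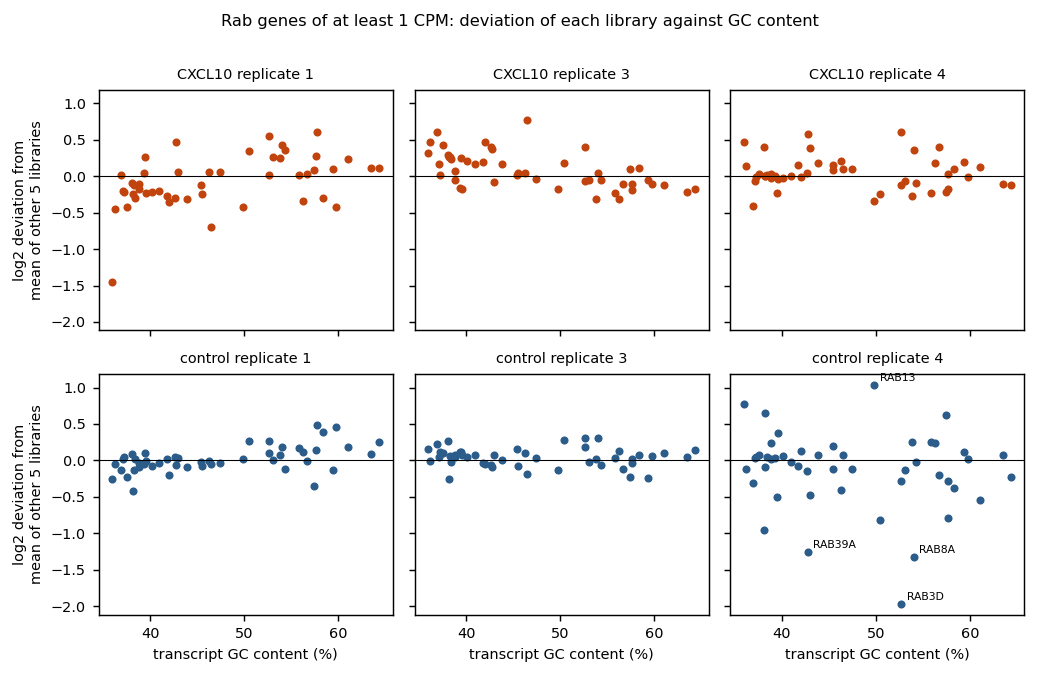
Deviation of each library from the mean of the other 5, on the log2 CPM scale, against transcript GC content in percent, for 48 Rab genes of at least 1 CPM; each point is a gene and each panel a library, with CXCL10 libraries above controls. The cloud tilts down in CXCL10 replicate 3 (r = -0.57) and up in CXCL10 replicate 1 (r = 0.44), while control replicate 4 has wide scatter with RAB3D, RAB8A and RAB39A low and RAB13 high.

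Genes around the Rab cycle were taken from lists of 127 regulators and effectors, of which 121 were tested. Again edgeR called 0 higher and 0 lower, with 4 above and 1 below 0 at an unadjusted p under 0.05, against 2.5% and 4.65% of all genes. DESeq2 and limma-voom called 0 as well, and put 6 and 3 under 0.05 before adjustment. Log2 fold changes were above 0 for 88 of 121, with a median of 0.12, where 54.04% of all genes were above 0 and their median was 0.02. With the gene length trend removed the count above 0 was 64 of 121 and the median 0.01, and without control replicate 4 it was 82 of 122 with a median of 0.07. Groups did not overlap for 18 of 121, or 14.9%, where 12.2% of all genes did. Effectors and tethers had 28 of 42 above 0 with a median of 0.12, and 22 of 42 with a median of 0.01 once that trend was removed. At an unadjusted edgeR p under 0.05, 3 of these 42 were above 0. Groups did not overlap for 10 of them, or 23.8%.

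SYTL2, an effector of RAB27A, had the lowest p above 0, with 4.02, 5.08 and 3.17 CPM in CXCL10 replicates 1, 3 and 4, against 2.48, 2.99 and 1.14 CPM in control replicates 1, 3 and 4. The groups did not overlap and control replicate 4 was lowest, with a log2 fold change of 0.89 ± 0.31 (SE), at an adjusted p of 0.683 from edgeR, and 0.59 without control replicate 4. MLPH, which links RAB27A to myosin, had 14.3 ± 1.125 CPM with CXCL10 and 17.3 ± 1.999 CPM in controls, a log2 fold change of -0.27 at an adjusted p of 0.733 from edgeR, and -0.18 without control replicate 4. Of the TBC proteins 24 of 31 were above 0, against 54.04% of all genes, but with the gene length trend removed 16 of 31 were, against 48.6% of all genes, and their median was 0.02 in place of 0.14. EVI5L, 1 of them, had 16.9, 13.99 and 14.3 CPM with CXCL10 and 12.8, 12.3 and 9.39 CPM in controls, a log2 fold change of 0.39 ± 0.17, at an adjusted p of 0.684 from edgeR, and 0.27 without control replicate 4. TBC1D24, below 0 in the same list, had 9.56 ± 0.904 CPM with CXCL10 and 11.97 ± 1.45 CPM in controls. Of the exchange factors 28 of 36 were above 0 with a median of 0.14, and with the gene length trend removed 21 of 36 with a median of 0.03. DENND4C, an exchange factor of RAB10, had 13.4 ± 3.04 CPM with CXCL10 and 9.91 ± 1.97 CPM in controls, and RABGEF1, which activates RAB5 proteins, had 3.45 ± 0.448 CPM with CXCL10 and 4.65 ± 0.794 CPM in controls. Their adjusted p values were 0.694 and 0.702 by edgeR. The log2 fold change of DENND4C was 0.43, and it was 0.28 without control replicate 4 and 0.23 without CXCL10 replicate 3. That of RABGEF1 was -0.43, and it was -0.29 without control replicate 4.

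Of the 8 genes listed for GDP dissociation inhibition, escort or prenylation of Rab proteins or for binding them, 4 were above and 4 below 0. CHML, a Rab escort protein, had 26.1, 41.3 and 26.6 CPM with CXCL10 and 21.0, 22.4 and 28.2 CPM in controls, a log2 fold change of 0.39 ± 0.19 (SE), at an adjusted p of 0.702 from edgeR. CXCL10 replicate 3 was far the highest: the value was 0.15 without it, and 0.53 without control replicate 4. RABAC1, a membrane protein that binds prenylated Rabs, had 3.64, 3.62 and 3.34 CPM with CXCL10 and 4.89, 3.23 and 10.3 CPM in controls. Only control replicate 4 was high for this gene, the groups overlapped, and the log2 fold change was -0.79 ± 0.33, at an adjusted p of 0.683 from edgeR, and -0.20 without that library.

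Several levels are uncertain because of how the genes lie. Exons of 32 of the 65 members share bases with another annotated gene, and for 12 of them over 20% of exon bases are shared, so reads there were left out. RAB43 shares 79.3% with the readthrough gene ISY1-RAB43, RAB23 shares 57.8% with BAG2 on the opposite strand, and RAB8A shares 44% with HSH2D and AC008894.2. RAB24 shares 44.8% with MXD3, RAB4B shares 39.7% with MIA-RAB4B, RAB4B-EGLN2 and AC008537.4, and RAB13 shares 24.8% with AL358472.6. For RAB1B the shared part is 43.8%, for RAB5C 30.4%, for RAB3D 25.1% and for RAB1A 22.9%. RAB6C, a retrocopy of RAB6A, has 45.8% of its windows of 100 bases in transcripts of other genes, and it had at most 2 reads in any library. Reads that map to several places were not counted, so levels of such copies may be too low. Levels of RAB43 and of the other members with shared exon bases may be too low because reads there were left out.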

How the data were processed

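Gene expression was measured by RNA-seq of polyadenylated RNA, prepared with a stranded ligation kit per the labels. The authors deposited raw read counts per gene, made with featureCounts 2.0.6 on GENCODE 30 exons per the file headers, alongside exon lengths. Trim Galore, STAR and hg38 are named in the submitters' processing notes, with no version given. Per the file headers no strand was set, reads over 2 genes were left out, and both mates of a fragment were counted, so counts overstate fragments.

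Counts were tested here with edgeR 4.0.16 in R 4.3.3: filterByExpr, TMM factors, a quasi-likelihood fit on group with every library, and a threshold of 0.05 after Benjamini-Hochberg adjustment across 16531 genes. CPM uses TMM-scaled totals. Deviations are of log2(CPM + 0.1). The edgeR step was tested on simulated data. Alternatives included DESeq2 1.42.0 and limma 3.58.1. GC content and shared windows came from GENCODE 29 transcripts, which hold all 65 members; of the tested genes 16395, or 99.2%, had a GC value. Pairs of libraries all differed beyond sampling noise.

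Members and lists were chosen with earlier results of these data known. Genes named for their difference are the 5 per direction with the lowest p and a mean of at least 1 CPM. Others are the 8 highest per kilobase, fixed relatives, and 1 regulator per list and direction; RAB1A, RAB1B, RAB43, RAB23, RAB24, RAB4B, RAB6C the other RAB11FIP genes and the single markers were added after their values were seen.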

Additional observations from a re-analysis of the deposited data

How the results depend on the processing

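Of the other settings run, 533 values kept their direction and their side of the threshold, 36 turned direction and 1 passed the threshold; these are log2 fold changes of named genes. No Rab or regulator gene was called under any setting but 1. Without the low-count filter edgeR made 137 calls among 30869 genes, 1 of them a Rab gene, RAB13 (-0.58). With library quality weights, chosen after seeing the data, limma-voom called 42 genes, none a Rab or regulator gene. The Rab median was 0.11 by library size only, and from -0.04 to 0.06 with 1 library left out, when RAB11FIP1 ran from 0.69 to 1.18. The same-numbered samples deviated with correlations of 0.03, 0.02 and -0.05, and differently numbered ones with -0.08 to 0.06. With 3 libraries a group, such values cannot show whether the numbers mark shared cultures. With the replicate block edgeR called 0 genes, and 1323 against 1181 had an unadjusted p under 0.05. The Rab median was then 0.0041, and RAB27A was 0.013. Genes that turned direction were not all near 0 in the main fit: RAB27B was -0.26, and RAB32 and RAB20 had the values given above. By library size only RAB14 was 0.076, RAB10 0.075 and RAB27A 0.063, and by limma-voom RAB27A was 0.022. With the length trend removed RAB32 was 0.027 and RAB31 -0.040, and with the replicate block added 0.022 and -0.046. With GC and length trends removed, chosen after seeing the data, RAB32 was 0.0021, RAB31 -0.031 and RAB11B 0.018, and with control replicate 4 also left out RAB32 was 0.0074, RAB11B 0.018 and RAB27A 0.20. With quality weights RAB7B was -0.0082, RAB14 0.029, RAB27A 0.24, RAB27B 0.21 and RAB20 -0.24. With 1 library left out in turn, RAB31 ran from -0.046 to 0.15, RAB7B from -0.0058 to 0.14, RAB14 from -0.042 to 0.044, RAB10 from -0.075 to 0.071, RAB5A from -0.11 to 0.23, RAB27A from -0.20 to 0.30, RAB27B from -0.54 to 0.11 and RAB20 from -0.10 to 0.46. The causes were not tested. With 3 libraries a group, intervals of low genes such as RAB20 and RAB3D are wide, and both mates of a fragment were counted; with counts halved, also chosen after seeing the data, 0 genes were called.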
